A study of Mus musculus with 8 samples.

Results

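Dopamine is made from tyrosine in 2 enzymatic steps, packed into synaptic vesicles, released onto G protein-coupled receptors, and then taken back up or oxidised. The genes described here cover that route: Th (tyrosine hydroxylase, the rate-limiting enzyme), Ddc (aromatic L-amino acid decarboxylase), Slc18a2 (the vesicular monoamine transporter of neurons), Slc6a3 (the plasma membrane dopamine transporter), the receptor genes Drd2 and Drd5, and Maoa and Maob (the monoamine oxidases of the mitochondrial outer membrane). In the hypothalamus, dopamine neurons lie along the third ventricle around and behind the suprachiasmatic nucleus (SCN), the seat of the master circadian clock, and SCN cells themselves carry dopamine receptors. Receptors of the D1 class, to which Drd5 belongs, raise cAMP through stimulatory G proteins, and receptors of the D2 class lower it.

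The 8 genes were picked by name as a pathway, with earlier results of these arrays known. For each, the probe set was chosen by its mean level over the 8 arrays, the brightest of those annotated to that symbol alone. Every one of the 8 had 1 such probe set, so the choice by level decided nothing here. They are 8 of 19938 genes with a probe set of exactly 1 symbol. All 8 lay above the level filter (a mean log2 level of 6.82) and so belonged to the 12452 genes tested. The rule sets no threshold on a difference between groups. Since earlier results were known when the list was drawn up, the tests on its members describe these arrays and are not independent evidence.

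RNA was measured on whole-transcript expression arrays in the SCN of C57BL/6J mice, either wild type or Gpr176-/-. The product of Gpr176 is an SCN receptor with no agreed ligand, and how its allele was disrupted, or in which cells, is not stated. All animals, wild type included, had spent more than 2 weeks under 12 h of light and 12 h of darkness. Tissue was then taken under constant darkness, either in the middle of the subjective day (circadian time 6, CT6) or in the middle of the subjective night (CT18). The SCN was cut out by laser microdissection and tissue of 10 animals was pooled for each array, which gives 2 pools, A and B, in each of the 4 groups. Age and sex are not in the labels. The study's design text calls the pools biological replicates, so the spread between A and B holds biological and technical variation together. The number of arrays, 2 a group, limits the precision. All values are log2 signals, in which a difference of 1 is a doubling. Signals of different probe sets depend on the probes, so levels were compared between arrays and never between genes. In pooled tissue, fewer cells of a type and less RNA per cell cannot be told apart.

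All 16 SCN marker genes listed were above the filter, among them Avp, Vip, Six6 and Syt10. Gpr176 stood between 9.31 and 9.87 in the wild-type arrays and between 8.02 and 8.56 in the knockout arrays; whether its probes lie inside the disrupted part is not known here. The 4 measured of 5 noradrenergic markers (Dbh, Slc6a2, Pnmt and Phox2a) lay between 5.35 and 6.09, and the 3 measured of 5 serotonergic markers (Tph1, Tph2 and Slc6a4) between 5.49 and 5.97, all 7 under the filter, which is a percentile and not a detection limit. Leptomeningeal genes varied between pools in a way that crossed the groups. The mean of 14 such genes was 8.01 in wild type CT6 B, 8.23 in wild type CT18 A and 8.21 in knockout CT6 A, and between 7.54 and 7.73 in the other 5 arrays.

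RefSeq promoter sequences of GRCm38.p6, running from 250 bases before to 50 bases after a transcription start, matched 7 of the 8 genes (8 promoters, since Ddc has 2); Maob was not among them. Those of Slc6a3 and Drd5 are shown because these genes had the largest day-night differences of the list, and those of Th, Slc18a2 and Ddc because they hold elements of the cAMP and NR4A pathways. All read 5′ to 3′ on the gene's own strand, with the matched motifs in capitals. They lie at chr13:73536497-73536796 (Slc6a3, plus strand), chr5:38319259-38319558 (Drd5, plus), chr7:142899946-142900245 (Th, minus), chr19:59260628-59260927 (Slc18a2, plus) and chr11:11898095-11898394 (Ddc, minus, the more upstream of its 2 promoters).
Slc6a3: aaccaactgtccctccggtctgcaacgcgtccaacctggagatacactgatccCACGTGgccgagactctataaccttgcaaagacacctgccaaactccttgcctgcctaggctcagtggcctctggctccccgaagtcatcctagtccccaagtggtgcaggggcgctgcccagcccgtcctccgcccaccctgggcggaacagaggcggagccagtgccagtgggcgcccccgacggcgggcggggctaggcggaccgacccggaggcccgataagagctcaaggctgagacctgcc
Drd5: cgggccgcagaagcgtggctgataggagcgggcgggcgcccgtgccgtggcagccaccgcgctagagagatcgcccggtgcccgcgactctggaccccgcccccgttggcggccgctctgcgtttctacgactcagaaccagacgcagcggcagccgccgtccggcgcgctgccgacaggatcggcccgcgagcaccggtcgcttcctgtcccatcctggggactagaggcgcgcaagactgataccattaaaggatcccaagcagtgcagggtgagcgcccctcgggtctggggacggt
Th: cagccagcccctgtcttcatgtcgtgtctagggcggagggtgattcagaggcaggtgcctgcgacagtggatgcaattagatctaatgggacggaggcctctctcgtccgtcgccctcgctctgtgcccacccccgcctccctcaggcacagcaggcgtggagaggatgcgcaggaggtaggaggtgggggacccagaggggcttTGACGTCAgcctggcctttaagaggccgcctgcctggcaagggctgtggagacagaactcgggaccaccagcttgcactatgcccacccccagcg
Slc18a2: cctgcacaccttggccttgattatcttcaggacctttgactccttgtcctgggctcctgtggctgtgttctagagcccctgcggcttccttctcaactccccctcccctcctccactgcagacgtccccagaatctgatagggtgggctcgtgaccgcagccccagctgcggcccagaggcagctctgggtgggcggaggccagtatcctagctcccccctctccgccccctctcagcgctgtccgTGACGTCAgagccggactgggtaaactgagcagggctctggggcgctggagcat
Ddc: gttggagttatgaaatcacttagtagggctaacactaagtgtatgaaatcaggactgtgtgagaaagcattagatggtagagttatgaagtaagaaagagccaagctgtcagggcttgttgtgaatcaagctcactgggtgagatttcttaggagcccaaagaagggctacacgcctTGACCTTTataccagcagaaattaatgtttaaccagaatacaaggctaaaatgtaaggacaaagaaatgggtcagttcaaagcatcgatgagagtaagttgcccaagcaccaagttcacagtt

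The motifs were searched on both strands: the E-box CACGTG bound by CLOCK and BMAL1, its variant CACGTT, the D-box TTATGTAA, the cAMP response element TGACGTCA and its core TGACG, the NR4A element AAAGGTCA and the nuclear receptor core AGGTCA. The longer cAMP and NR4A elements contain their cores, so a promoter with the former counts for both. Slc6a3 held an E-box from -197 to -192 relative to the start, a motif found in 7.15% of all 32841 promoters of this length. Drd5 held none of the 7 motifs in this window. The full cAMP response element stood in Th at -45 to -38 and in Slc18a2 across the start, from -4 to 4, against 1.79% of all promoters. Ddc held the NR4A element on the opposite strand at -73 to -66 (1.51% of all promoters), and Maoa held a cAMP core at -209 to -205 (20.8%). No D-box and no CACGTT was present in any of the 8 promoters. These are matches of letters, not bound sites.

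The day-night comparison asked which of these transcripts differ between subjective day and subjective night. Over both genotypes Drd5 and Slc6a3 rose at CT18, by 0.72 and 0.66 on the log2 scale (1.65-fold and 1.58-fold). Maoa, Slc18a2 and Ddc fell, by 0.26, 0.19 and 0.18 (to 0.834, 0.878 and 0.885 of the CT6 level). Drd2 (-0.17), Th (-0.02) and Maob (0.03) did not pass the test. Thus 5 of the 8 genes were called, 2 higher and 3 lower, where 16.8% of all 12452 genes tested were called. The median difference was -0.0911 over the 8 genes and 0.0104 over all genes. Calls are from limma, at a Benjamini-Hochberg adjusted p under 0.05 over all 12452 genes, and values after ± are standard errors of that fit unless an SD is named.

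**Figure D1:**
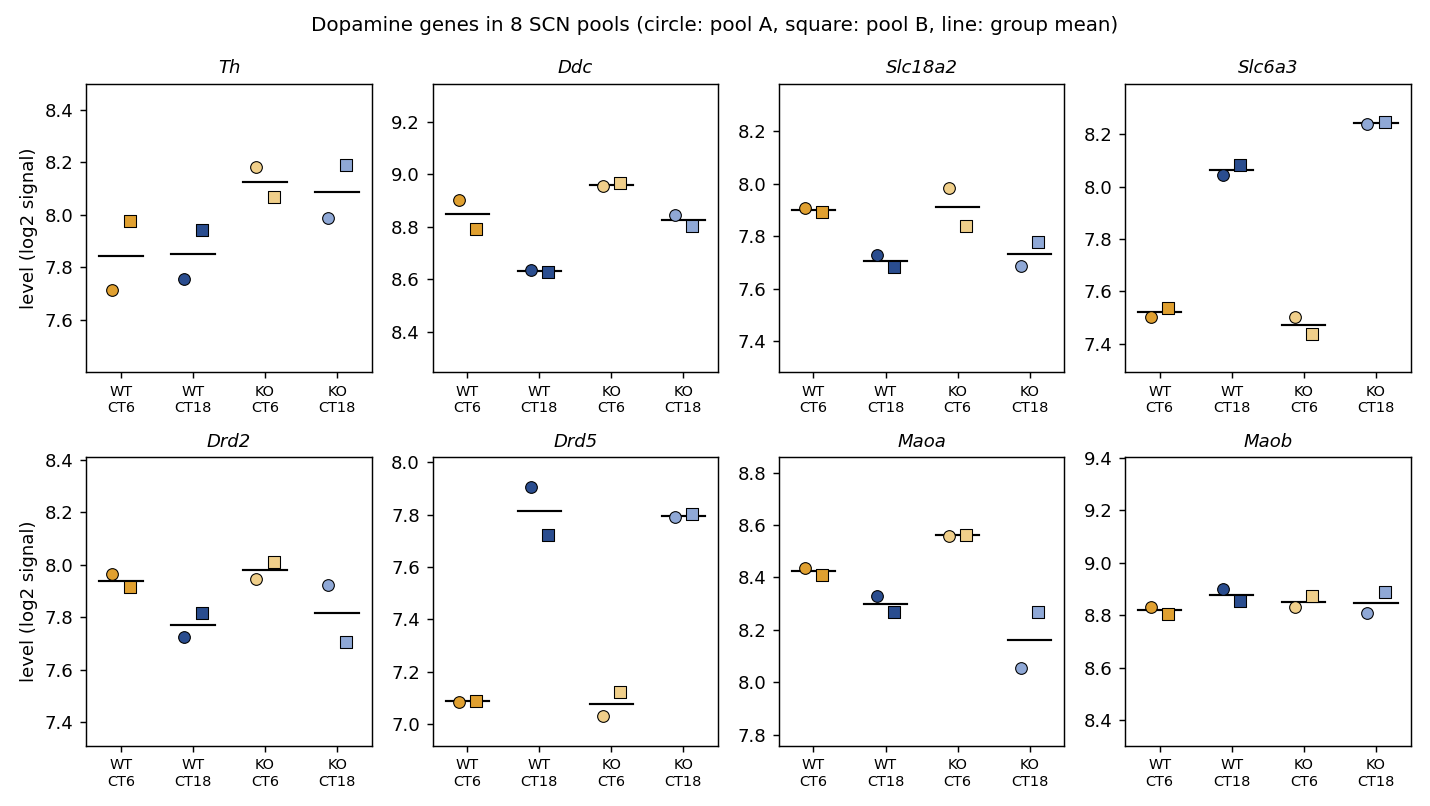
Each panel plots the log2 signal of a gene in the 8 arrays by genotype (WT, wild type; KO, Gpr176 knockout) and circadian time, with a circle for pool A, a square for pool B and a line at the group mean; every panel spans the same height of the log2 axis. The CT18 points of Slc6a3 and Drd5 lie well above all CT6 points in both genotypes, and Maob varies within 0.09 over all arrays.

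Slc6a3, whose protein clears released dopamine from the synapse, read 7.50 and 7.54 in wild type at CT6 (pools A and B) and 8.04 and 8.08 at CT18. In the knockout it read 7.50 and 7.44 at CT6 and 8.24 and 8.25 at CT18. Every CT18 array was above every CT6 array, and pools of a group differed little, with an SD of 0.026, 0.026, 0.047 and 0.0073 (n = 2 each) in wild type CT6 and CT18 and knockout CT6 and CT18. The difference was 0.54 ± 0.0526 in wild type (limma adjusted p = 0.000285), 0.77 ± 0.0526 in the knockout (adjusted p = 3.24e-05) and 0.66 ± 0.0372 over both (adjusted p = 3.93e-06). By size it ranked 30 among the rises of all genes tested.

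The larger step in the knockout was tested as an interaction, the day-night change in the knockout minus that in wild type. For Slc6a3 it was 0.23 ± 0.0744, with a 95% interval of 0.06 to 0.40. The unadjusted limma p was 0.0122 and the adjusted p 0.944, so the difference between genotypes did not pass. Both knockout arrays at CT18 (8.24 and 8.25) were above both wild-type arrays at that time (8.04 and 8.08), while the CT6 arrays of the genotypes overlapped.

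Drd5, a D1-class receptor gene, had nearly the same step in both genotypes. Wild-type pools read 7.08 and 7.09 at CT6 and 7.91 and 7.72 at CT18, while knockout pools gave 7.03 and 7.12, then 7.79 and 7.80. The groups of the 2 times did not overlap in either genotype. The rise was 0.73 ± 0.0679 in wild type (limma adjusted p = 0.000225), 0.72 ± 0.0679 in the knockout (adjusted p = 0.00024) and 0.72 ± 0.048 over both (adjusted p = 9.76e-06), and ranked 23 among all rises. The interaction was -0.01 with a 95% interval of -0.22 to 0.21. The CT6 level lay close to the filter of 6.82, the lower bound of the genes tested.

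Among the other receptor genes, Drd2, the autoreceptor of dopamine neurons and the main D2-class receptor, read 7.97 and 7.91 in wild-type CT6 pools and 7.72 and 7.82 at CT18. In the knockout it read 7.95 and 8.01 at CT6 and 7.93 and 7.71 at CT18. Each CT18 array was below each CT6 array within a genotype, but across genotypes the CT6 and CT18 arrays overlapped. The difference over both genotypes was -0.17 ± 0.0533 (limma adjusted p = 0.0609) and did not pass. It did pass without knockout CT18 A (-0.22, adjusted p = 0.019). Drd1, the other D1-class gene, was not in the list of 8. It read between 9.47 and 9.62 in all arrays and differed by -0.08 ± 0.0397 between times (adjusted p = 0.21), with a 95% interval of -0.17 to 0.01 against 0.62 to 0.83 for Drd5. Drd3 and Drd4 lay under the filter.

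**Figure D2:**
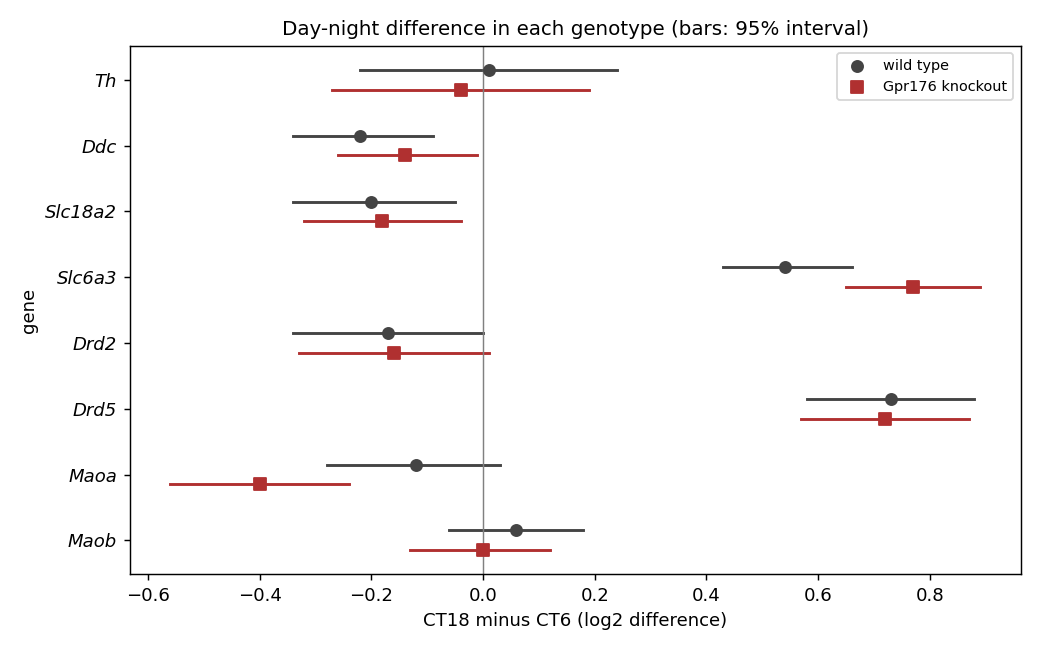
Log2 difference of CT18 minus CT6 for each gene in wild type (grey circles) and Gpr176 knockout (red squares), with bars for the 95% interval of the limma fit. The intervals of Slc6a3 and Drd5 lie above 0.4 in both genotypes, and those of Maoa are the furthest below 0 in the knockout, from -0.56 to -0.24.

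The genes of vesicular packaging and decarboxylation fell at CT18 over both genotypes. Slc18a2, which loads dopamine, serotonin, noradrenaline and histamine into vesicles, read 7.91 and 7.89 in wild-type CT6 pools and 7.73 and 7.68 at CT18, while knockout pools gave 7.98 and 7.84, then 7.69 and 7.78. Every CT18 array was below every CT6 array. The difference was -0.20 ± 0.0636 in wild type (limma adjusted p = 0.105), -0.18 ± 0.0636 in the knockout (adjusted p = 0.13) and -0.19 ± 0.0449 over both (adjusted p = 0.0193), where alone it passed. Its call was lost without wild type CT6 A, CT6 B or CT18 B or knockout CT6 A or CT18 A, with differences from -0.19 to -0.15 and adjusted p up to 0.0651.

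Ddc, which turns L-DOPA into dopamine and 5-hydroxytryptophan into serotonin, read 8.90 and 8.79 in wild-type CT6 pools and 8.63 in both arrays at CT18. The knockout arrays read 8.96 and 8.97 at CT6 and 8.85 and 8.80 at CT18. Within each genotype the times did not overlap, but the higher knockout values at CT18 reached into the wild-type CT6 range. The difference was -0.22 ± 0.0563 in wild type (limma adjusted p = 0.0501), -0.14 ± 0.0563 in the knockout (adjusted p = 0.189) and -0.18 ± 0.0398 over both (adjusted p = 0.0149). The last call was lost without wild type CT6 A (-0.15, adjusted p = 0.0513) or knockout CT18 B (-0.17, adjusted p = 0.0548).

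Th, the committed step of the pathway, did not pass the day-night test. Wild-type pools read 7.71 and 7.98 at CT6 and 7.76 and 7.94 at CT18. Knockout pools read 8.18 and 8.07 at CT6 and 7.99 and 8.19 at CT18, so the times overlapped in both genotypes. Its pools differed more than those of the other 7 genes in wild type at CT6, with an SD of 0.19 (n = 2). The day-night difference over both genotypes was -0.02 ± 0.0727 (limma adjusted p = 0.915), with a 95% interval of -0.18 to 0.15.

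Of the oxidase genes, only Maoa was called. Maoa, which prefers serotonin and noradrenaline and also oxidises dopamine, read 8.44 and 8.41 in wild-type CT6 pools and 8.33 and 8.27 at CT18. In the knockout it read 8.56 in both arrays at CT6 and 8.05 and 8.27 at CT18. Every CT18 array was below every CT6 array. The difference was -0.12 ± 0.0707 in wild type (limma adjusted p = 0.349), -0.40 ± 0.0707 in the knockout (adjusted p = 0.00905) and -0.26 ± 0.05 over both (adjusted p = 0.0066). The knockout call was lost without knockout CT18 A, the lowest array (-0.29, adjusted p = 0.0544). The interaction was -0.28 ± 0.10 (unadjusted p = 0.0203, adjusted p = 0.944) and did not pass. Markers of several cell types were also lower at CT18 in the knockout, among them endothelial and mural genes. The mean of 10 such genes was 8.23 to 8.27 in knockout CT6 pools and 8.08 to 8.09 in those of CT18, against 8.19 to 8.30 and 8.15 to 8.25 in wild type. In the knockout 6 of the 9 tested were lower in every CT18 array, where 23.8% of all genes were, and 1 was called. Their median difference was -0.17. Also lower in every CT18 array were 8 of 11 leptomeningeal genes (median -0.44), 5 of 10 astrocyte genes and 4 of 9 oligodendrocyte genes, but 0 of 6 microglial genes. The astrocyte and oligodendrocyte medians were -0.04 and -0.11, and 2 and 1 of these genes were higher in every CT18 array. Among 7 ependymal and tanycyte genes 2 were lower and 3 higher in every CT18 array. The part of these cell types in the Maoa result was not tested.

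Maob, found mainly in astrocytes, histamine and serotonin neurons, gave 8.83 and 8.81 in the wild-type CT6 pools and 8.90 and 8.86 in those of CT18. Knockout pools gave 8.83 and 8.87, then 8.81 and 8.89. The times overlapped over both genotypes, and the day-night difference over both genotypes was 0.03 ± 0.0384 (limma adjusted p = 0.707). Its 95% interval, -0.06 to 0.11, does not reach the fall of Maoa, whose interval was -0.37 to -0.15. The mean of 10 astrocyte markers was 10.79 to 10.89 in wild type at CT6, 10.79 to 10.87 at CT18, 10.82 to 10.84 in knockout CT6 pools and 10.67 to 10.73 in those of CT18. Maoa and Maob lie next to each other on the X chromosome.

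**Figure D3:**
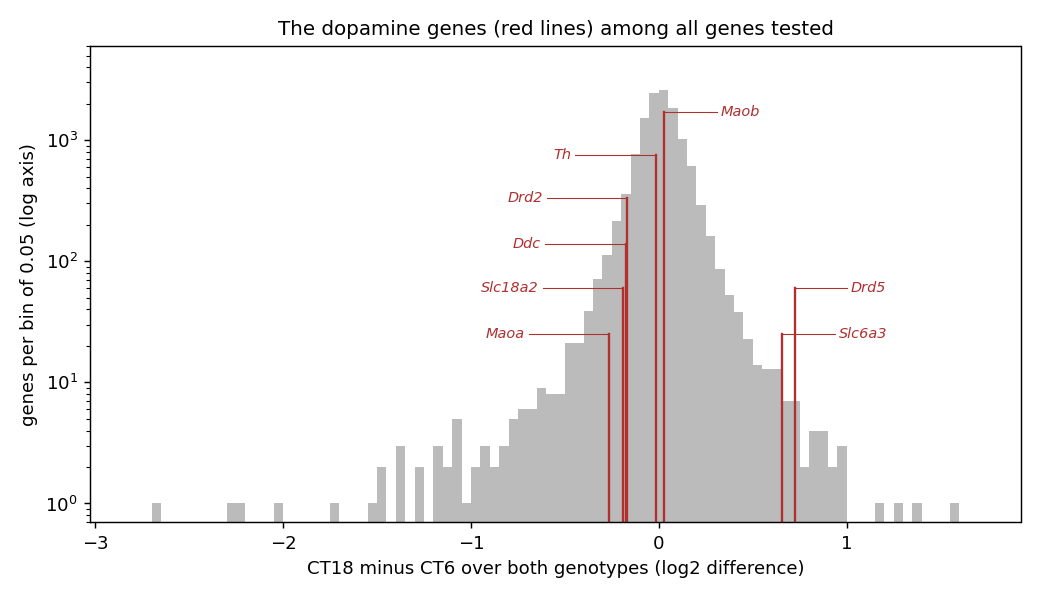
Histogram of the log2 difference of CT18 minus CT6 over both genotypes for the 12452 genes tested (grey, in bins of 0.05, log vertical axis), with red lines at the 8 dopamine genes, whose heights carry no meaning. Drd5 (0.72) and Slc6a3 (0.66) lie in the sparse upper tail, and the other 6 lie between -0.26 and 0.03.

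By genotype, 2 of the 8 genes were called in wild type, Slc6a3 and Drd5 (6.94% of all genes were called), and 3 in the knockout, which added Maoa (7.16% of all genes). No interaction was called for any of the 8 or of all genes tested (0%), although 2 of the 8, Slc6a3 and Maoa, and 605 of all genes had an unadjusted limma p under 0.05; limma with an intensity trend called 0 of the 8 as well. Counting arrays alone, 4 of the 8 genes had no overlap between the 4 CT18 and the 4 CT6 arrays, where 21% of all genes tested had none. They were Slc6a3, Drd5, Slc18a2 and Maoa.

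The genotype comparison asked how loss of Gpr176 changes these transcripts at each time and over both. No gene of the list was called at CT6 (0.00803% of all genes, 1 of 12452, were called), at CT18 (0.00803% of all genes) or over both times (0.0241%, 3 of 12452). At an unadjusted limma p under 0.05 there were 1 at CT6 (Th), 3 at CT18 (Th, Ddc and Slc6a3) and 2 over both (Th and Ddc), and the fit with an intensity trend also called 0. The 95% intervals over both times were -0.08 to 0.09 for Maob and -0.12 to 0.09 for Drd5.

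**Figure D4:**
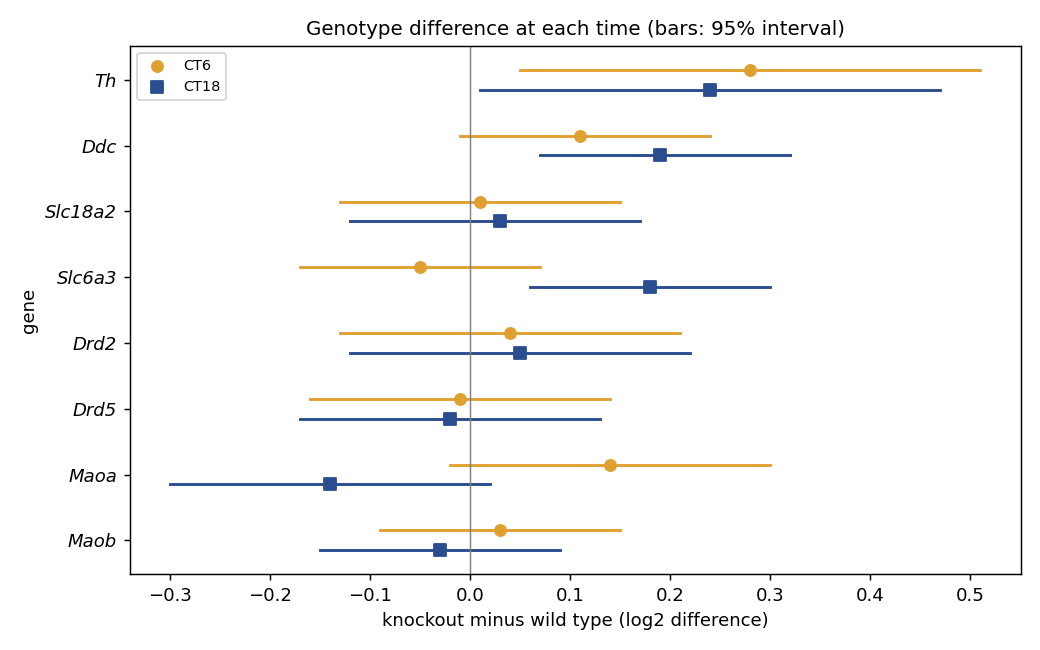
Log2 difference of knockout minus wild type for each gene at CT6 (orange circles) and CT18 (blue squares), with bars for the 95% interval of the limma fit. The intervals of Th lie above 0 at both times, from 0.05 to 0.51 and from 0.01 to 0.47, but no difference passed after adjustment over all genes.

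Th had the largest genotype difference of the 8. All 4 knockout arrays, from 7.99 to 8.19, were above all 4 wild-type arrays, from 7.71 to 7.98, by a margin that was small between the nearest arrays. Of all genes tested 2.1% were higher in every knockout array. The difference was 0.28 ± 0.103 at CT6 (limma adjusted p = 0.975), 0.24 ± 0.103 at CT18 (adjusted p = 0.39) and 0.26 ± 0.0727 over both times (1.2-fold, unadjusted p = 0.00539, adjusted p = 0.342). By size it ranked 11 among the higher values of all genes tested. Ddc differed by 0.15 ± 0.0398 over both times (unadjusted p = 0.00341, adjusted p = 0.342), with overlapping arrays. Neither passed.

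Markers of neurons that lie around the SCN were read beside Th. The oxytocin gene Oxt gave 11.39 and 11.65 in wild-type CT6 pools and 11.51 and 11.56 at CT18. Knockout pools gave 11.96 and 11.84, then 11.69 and 11.89. It was thus higher in every knockout array, by 0.32 ± 0.0678 over both times (limma adjusted p = 0.342). The galanin gene Gal, at 7.90 to 7.93 in wild type and 8.02 to 8.48 in the knockout, differed by 0.26 ± 0.0631 (adjusted p = 0.342). Of the 12 measured of 14 genes on the list of neighbouring neurons, 8 were tested and 0 were called over both times by limma, with or without an intensity trend, although 3 had an unadjusted p under 0.05. Higher in every knockout array were 3 of them, Oxt, Gal and Kiss1, where 2.1% of all genes tested were. The mean level of the 12 was 7.68 to 7.74 in wild type and 7.77 to 7.85 in the knockout. Genes of the SCN itself differed as well. Among 16 SCN markers, 8 had an unadjusted limma p under 0.05 over both times and 1, Gpr176, was called. Nms was higher in every knockout array, at 11.08 to 11.26 against 10.71 to 11.07 in wild type. It was the only 1 of the 16 to be so, and 2 were lower in every knockout array. The markers of the adjacent dopamine cells are the members themselves. The part of neighbouring tissue in the Th difference was not tested.

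**Figure D5:**
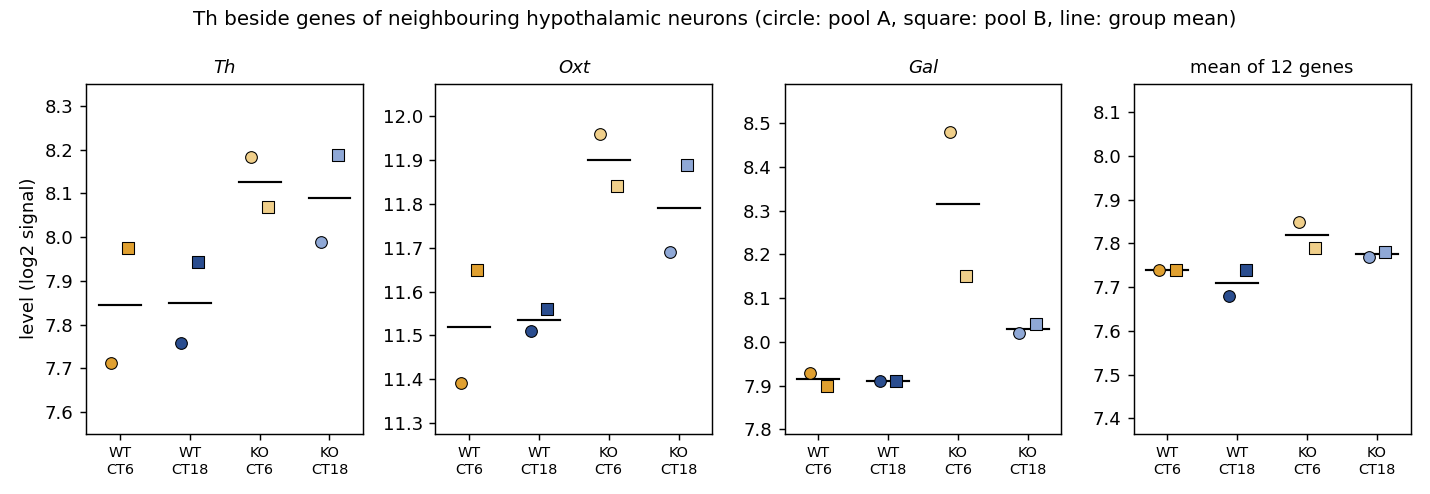
Log2 signal of Th, Oxt, Gal and the mean of 12 genes of neighbouring hypothalamic neurons in the 8 arrays (circle, pool A; square, pool B; line, group mean), on axes of equal height. In each panel the knockout arrays lie above the wild-type arrays, and none of the differences of the 3 genes passed the test.

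Th and Oxt had the same order of pools within each group. Pool B was above pool A for both in wild type at CT6 and CT18 and in the knockout at CT18, and below it for both in the knockout at CT6. This order was not particular to Th and Oxt. Crym and Col23a1, listed as ependymal and tanycyte genes, had it too, and its share over all genes was not counted. Other genes of the list of neighbouring neurons did not share that order throughout. In wild type at CT6, pool A was the higher for Gal (7.93 and 7.90), Npy (8.69 and 8.61) and Tac2 (8.68 and 8.51). Trh followed Th there (9.29 and 9.34) but not in the knockout at CT18 (9.39 and 9.34). Slc6a3 pools differed by less than 0.1 in every group.

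The rest of the dopamine route was described from 8 lists that hold 69 gene names, of which 59 were measured and 44 tested. Over both genotypes 7 of the 44 rose and 4 fell at CT18, or 25%, beside 16.8% of all genes. The median difference was 0.0135, against 0.0104 over all genes. In wild type 3 rose and 1 fell (9.09%, beside 6.94% of all genes), and in the knockout 3 rose and 2 fell (11.4%, beside 7.16%), shares near those of all genes. For genotype, 0 of the 44 were called by limma at CT6, at CT18 or over both times, with 5, 7 and 6 at an unadjusted p under 0.05 and 0 called with an intensity trend. Interactions were called for 0 by either fit, with 1 at an unadjusted p under 0.05.

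For the tetrahydrobiopterin cofactor of tyrosine hydroxylase, 7 genes were measured and 5 tested, and 0 were called over both genotypes by limma with or without a trend (1 at an unadjusted p under 0.05). Gch1, which starts its synthesis, lay under the filter at 5.47 to 5.67, and Qdpr, which recycles it, differed by -0.15 ± 0.0857 (limma adjusted p = 0.271). Among 7 partners of the enzyme, Dnajc12, a cochaperone of the aromatic amino acid hydroxylases, fell by 0.27 (adjusted p = 0.00824) and Ywhah, a 14-3-3 protein gene, rose by 0.26 (adjusted p = 0.00825). Of 4 tested vesicle and transporter partners, Sncg, gamma-synuclein, fell by 0.33 (adjusted p = 0.00363). By genotype, Sncg stood 0.24 and Dnajc12 0.19 above wild type over both times, neither past the test (adjusted p = 0.342 each) and both with overlapping arrays. Higher in every knockout array were 2 of the 5 tested cofactor genes, where 2.1% of all genes were. They were Spr (7.93 to 8.26, against 7.78 to 7.91 in wild type) and Pcbd2 (8.27 to 8.36, against 8.19 to 8.23). By genotype over both times, 0 of the 5 were called and 2 had an unadjusted limma p under 0.05.

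Of genes for dopamine and noradrenaline breakdown other than the monoamine oxidases, 2 of 5 tested rose over both genotypes, where 16.8% of all genes were called. Each call was lost on leaving out at least 1 single array. Aldh2, which oxidises the aldehyde that monoamine oxidases form, rose by 0.27 ± 0.0591 (limma adjusted p = 0.0135), a call lost without knockout CT18 B (0.23). Sult1a1, a phenol sulfotransferase, rose by 0.22 (adjusted p = 0.0427), a call that was kept without knockout CT6 A and lost without any other of the 8 arrays (adjusted p up to 0.129) and with no filter (adjusted p = 0.0777). In wild type alone Aldh2 and Sult1a1 were called, at 0.35 each (limma adjusted p = 0.036 and 0.0442). In the knockout they were not, at 0.18 and 0.08 (adjusted p = 0.228 and 0.662). Their interactions did not pass (adjusted p = 0.944 each). Of 13 receptor signalling genes, Rgs4, a regulator of Gi and Gq signalling, rose by 0.24 ± 0.0399 over both genotypes (adjusted p = 0.00305). Adcy5, the adenylyl cyclase of striatal dopamine signalling, rose by 0.19 (adjusted p = 0.00796). Gnal, the stimulatory G protein subunit of D1-class receptors in striatum, fell by 0.15 (adjusted p = 0.048), a call lost in the values as deposited (adjusted p = 0.113), with median centring, no filter or the letters as a block, and without any 1 array but wild type CT6 B. Ppp1r1b, a phosphatase inhibitor acting below D1-class receptors, stood between 7.35 and 7.41 and differed by -0.01 ± 0.0365.

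Of the midbrain dopamine neuron transcription factors, 6 of 8 measured lay under the filter, among them Pitx3, En1 and Foxa2. Nr4a2 (Nurr1), which drives Th and Slc6a3 in midbrain neurons, fell at CT18. Wild-type pools gave 8.30 and 8.26, then 7.69 and 7.84, and knockout pools 8.27 and 8.31, then 7.84 and 7.77, a difference of -0.50 ± 0.0449 (limma adjusted p = 7.78e-05). Its direction was opposite to that of Slc6a3 in each genotype, and the same as that of Maoa, Slc18a2 and Ddc. The part of Nr4a2 in the differences of these genes was not tested. Of the hypothalamic factors, 7 of 9 measured were tested. Sox2, a factor of SCN neurons and glia, rose by 0.36 (adjusted p = 0.00341) and Dlx1 by 0.16 (adjusted p = 0.012).

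Histamine neurons also use Slc18a2, and their enzyme gene Hdc moved opposite to it over both genotypes. Hdc, histidine decarboxylase, gave 8.33 and 8.30 in wild-type CT6 pools and 8.71 and 8.69 at CT18, and 8.15 and 8.49, then 8.67 and 8.82, in knockout pools. It rose by 0.41 ± 0.0694 (limma adjusted p = 0.00362). The histamine receptor gene Hrh3 fell by 0.35 ± 0.0566 (adjusted p = 0.00298).

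The genes whose 8 values were most like those of each called member were found by Pearson correlation over the 8 arrays. Since the arrays fall into a CT6 and a CT18 cluster, a high r for these genes mostly restates a shared day-night step, and it is given as a description. The closest to Drd5 were Adal (r = 0.997), Avpr1a (0.996), Tarsl2 (0.994), Pdgfa (0.994) and Galnt9 (0.994), with rises over both genotypes from 0.37 for Adal to 1.29 for Avpr1a, the V1a vasopressin receptor gene. The closest to Slc6a3 were Slc41a3 (0.996), Timm22 (0.994), Ildr1 (0.992), Znfx1 (0.991) and Ormdl2 (0.989). Each of these 5 had a larger step in the knockout than in wild type, for example 0.86 against 0.57 for Ildr1, as Slc6a3 had; that is part of the likeness by which they were found. Of 12451 other genes, 253 reached r above 0.95 with Drd5 and 111 with Slc6a3.

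The falling members had fewer close companions, 11 genes above 0.95 for Maoa, 16 for Ddc and 4 for Slc18a2. The nearest to Maoa was Dcaf13 (0.986), to Ddc Sdhb (0.978), a subunit of succinate dehydrogenase, and to Slc18a2 Cd9 (0.976), a tetraspanin. Next in order came Dnah9 (0.971), Clstn2 (0.967), Pcdhb15 (0.966) and Golga3 (0.964) for Maoa. For Ddc they were Wipi2 (0.976), Rpl7 (0.975), Rps7 (0.965) and Calml4 (0.963), and for Slc18a2 Slc31a1 (0.974), Dgat2 (0.967), Stat3 (0.958) and Doc2a (0.943).

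The 3 protein-coding genes on each side of every member, by order in the RefSeq table, were looked up after the members' values were seen. Of 42 such neighbours 24 were tested and 5 were called between times over both genotypes, a share near the 16.8% of all genes. Beside Slc6a3, Lpcat1 fell by 0.18 (limma adjusted p = 0.0219) and Tert rose by 0.29 (adjusted p = 0.0253), while Clptm1l (-0.06), Mrpl36 (0.14) and Ndufs6 (0.01) did not pass. Beside Drd5, Wdr1 rose by 0.36 (adjusted p = 0.000625), and Lyar (0.03), Tmem128 (-0.08) and Zfp518b (-0.01) did not pass. The steps of Slc6a3 and Drd5 were thus larger than those of the tested genes among the 3 on each side. The genes directly beside Drd5, Otop1 and Slc2a9, were not tested. Near Maoa and Maob, Ndp, the norrin gene, rose by 0.36 (adjusted p = 0.00166), and near Ddc, Cobl fell by 0.14 (adjusted p = 0.0429). For genotype over both times, 0 of the 24 were called by limma, with or without an intensity trend, and 3 had an unadjusted p under 0.05.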

How the data were processed

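The authors deposited 1 table of log2 signals for 28853 probe sets and 8 arrays; per the labels, RNA was column purified, amplified with a whole-transcript kit and labelled with biotin. The background correction and normalization behind them were not given in the sources used here. Array medians ran from 7.34 to 7.39 before any step and lower quartiles spread over 0.139. The columns were therefore quantile normalized, a step that removes any change common to most genes. Probe sets were named from the platform annotation: 21789 with exactly 1 symbol, 1621 with several (not used) and 5443 unnamed here. The brightest probe set stood for each of 19938 genes, and 7486 genes with a mean under the 40th percentile of all probe sets (6.82) were left out. This percentile is not a detection limit, since the files hold no detection calls.

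A mean for each of 4 groups was fitted with limma 3.58.1 (R 4.3.3), with 4 residual and 5.58 prior degrees of freedom. From it came 7 contrasts with two-sided p-values, Benjamini-Hochberg adjusted over 12452 genes and called under 0.05. The fit was tested on simulated data. The members and lists were chosen with earlier results of these data known. The rule for genes to name took all 8 members, Gpr176, called pathway members up to 4 a list, and the 5 genes closest to each called member by Pearson r over 8 arrays, leaving out provisional symbols. Pathway genes that were not called were named outside this rule. Marker genes and chromosomal neighbours were named after their values were seen. Promoter sequences are from RefSeq (GRCm38.p6), and no other coordinates of that assembly were used. Figures were drawn with matplotlib 3.10.9.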

Additional observations from a re-analysis of the deposited data

How the results depend on the processing

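The 8 genes were refitted with the values as deposited, median centring, no filter, a filter at the 50th percentile, the mean of all probe sets, an intensity trend, a replicate block and each array left out. Drd5 and Slc6a3 kept their calls in wild type, in the knockout and over both genotypes in all 15 refits, with differences over both from 0.68 to 0.77 and from 0.64 to 0.67, and so did Maoa over both (-0.32 to -0.21). The count of members called over both genotypes, 5, ranged from 3 (without wild type CT6 A) to 5 when 1 array was left out, was 6 with the stricter filter and 5 with the replicate block, which changed no call of the 8 genes. The labels do not tie A to A between groups. The A minus B differences of the groups correlated between -0.222 and 0.257 over genes. These correlations neither show nor exclude shared processing of pools with the same letter. Ddc passed in wild type with the stricter filter (adjusted p = 0.0354), the mean of all probe sets (0.0485) and the intensity trend (0.0352), and Drd2 passed over both genotypes with the stricter filter (0.0441). No genotype difference or interaction of the 8 genes passed in any refit. No difference called in the fit or a refit changed sign. The calls over all genes in wild type, 864, fell to between 311 and 486 without 1 of its own arrays, and in the knockout, 891, to between 382 and 508, and to 590 with median centring. Without knockout CT18 B, 1385 of all genes were called over both genotypes, against 2096. Over both times 3 genes were called by genotype, against 6 in the values as deposited, 5 with median centring or the stricter filter, 7 with the trend, 1 with no filter and 1 to 4 without 1 array. At CT6 it was 1, against 2 as deposited, with median centring or with the block, and at CT18 1, against 3 with median centring.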
